A study of Mus musculus with 15 samples.

Results

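The MYC network is described here through 9 genes, Myc, its partner Max, the MAX-binding repressors Mxd1, Mxi1, Mxd4 and Mnt, and the MYC-linked metabolic genes Odc1, Nme1 and Nme2. They are 9 of 18193 genes with a probe set of their own on the array, and all 9 were among the 12701 genes bright enough to be tested. They were chosen by name, together with earlier results on these arrays, and were read from the probe sets that the platform annotation assigns to one of these symbols alone. Nme1 was selected on its measured signal, which was higher with DPI and DNFB together than with DPI alone, so its values in every comparison that involves DPI are a description without a test.

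The cells were a dendritic cell line that the labels trace to the epidermis of newborn A/J mice, and they were profiled on 15 Affymetrix arrays, 3 per group. One group received diphenyl iodonium (DPI), which blocks flavin-dependent enzymes such as NADPH oxidase and so lowers reactive oxygen species, together with dinitrofluorobenzene (DNFB, a contact allergen that binds to proteins), and others received DPI alone, DNFB alone or hydrogen peroxide (H2O2, an oxidant). The last group was non-treated per the labels, whereas the series description speaks of vehicle. All groups share the A/J background and the one cell line, and doses and exposure times are not given in the sources used here. Nothing says that replicates came from separate cultures, so p-values measure only the spread between arrays, which may be technical. The deposited arrays carried 1 of 2 scaling targets, a trimmed mean of 250 on 6 arrays and of 500 on 9. Signals are linear and rescaled to 1 trimmed mean, values are listed for replicates 1, 2 and 3 in that order, and fold changes are on the log2(signal + 15) scale with the standard error of the fit. Of a gene's probe sets, the one with the highest mean signal stands for the gene and is called its main probe set. A call means an adjusted p below 0.05 over all 12701 genes.

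MYC is a transcription factor that binds DNA as a dimer with MAX at the E-box, the letters CACGTG, and raises transcription of genes for growth, nucleotide and polyamine synthesis and ribosome production. MXD1, MXI1, MXD4 and MNT compete for MAX, bind the same letters and recruit SIN3 and histone deacetylases to repress transcription. MYC is typically high in proliferating cells, and MXD1 typically rises when myeloid cells stop dividing and differentiate. ODC1 is the first and rate-limiting enzyme of polyamine synthesis, and NME1 and NME2 are nucleoside diphosphate kinases that balance nucleotide pools.

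The E-box is the sequence the network's dimers share, so the members' promoters were searched for it. RefSeq promoter windows of build GRCm38.p6, each holding 250 bases before and 50 bases after a transcription start, were matched by symbol for 8 of the 9 genes; Myc was not matched. The motif CACGTG, which reads the same on both strands, was found in 5 of 12 windows and in 4 of the 8 genes, while 7.15% of all 32851 windows and 8.09% of the 27025 genes in the table held it. Mxd1, Mxi1, Nme2 and Odc1 had no match in their windows, which says only that these letters are not there. The matches follow with 12 bases on each side, 5′ to 3′ on the gene's strand, with the E-box in capitals.
Max, chr12:76962234-76962263, minus strand: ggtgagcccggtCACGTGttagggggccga
Mxd4, chr5:34187912-34187941, minus strand: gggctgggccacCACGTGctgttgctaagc
Mnt, chr11:74830789-74830818, plus strand: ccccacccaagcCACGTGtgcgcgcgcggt
Nme1, first window, chr11:93968037-93968066, minus strand: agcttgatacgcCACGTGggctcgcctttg
Nme1, second window, chr11:93968273-93968302, minus strand: gctgcggggaacCACGTGaggccggggagc
The motif began 3 bases before the start site of the window for Max, 219 before it for Mxd4 and 123 before it for Mnt. The RefSeq spans of Max, to 76962323, and of Mnt, from 74830806, reach further upstream than those start sites. For Nme1 it began 29 and 18 bases before the start sites of its separate windows. A match is a description of the sequence and not evidence that a factor binds there.

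Myc was lowest in both groups that received DPI. Its signal was 1086, 1544 and 1199 with DPI and DNFB together and 845, 1068 and 954 with DPI alone. It was 3452, 4001 and 3374 with DNFB alone, 4690, 4884 and 5122 with H2O2 and 6126, 5313 and 5842 in non-treated cells. From lowest to highest the order of the groups was DPI, DPI+DNFB, DNFB, H2O2 and non-treated, and no neighbours in that order overlapped, although the highest DPI array and the lowest DPI+DNFB array lay close together.

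Relative to non-treated cells, Myc fell by 2.58 ± 0.13 on the log2 scale with DPI, a 5.97-fold lower level (adjusted p = 6.03e-11). Among arrays deposited with 1 scaling target the same difference was -2.45 on the 9 arrays scaled to 500 and -2.84 on the 6 scaled to 250. At 500 the DNFB group held only 1 array, and at 250 every group but DNFB held only 1. Differences of single genes within a target are therefore given as sizes only. With DNFB alone Myc fell by 0.67 ± 0.13 (adjusted p = 0.000496), which was -0.48 within the arrays scaled to 500 (adjusted p = 0.134) and -0.84 within those scaled to 250 (adjusted p = 0.00289). With H2O2 the difference was -0.23 ± 0.13 and did not pass (adjusted p = 0.195). In bulk RNA, fewer cells of a type and less RNA per cell cannot be told apart.

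DPI and DNFB together left Myc 4.51-fold below non-treated cells (-2.17 ± 0.13, adjusted p = 3.97e-10) and 2.83-fold below DNFB alone (-1.50 ± 0.13, adjusted p = 1.99e-08). The ratio of 3' to 5' beta-actin signal, a sign of RNA quality, was 2.07, 1.50 and 2.29 on the DPI+DNFB arrays, against 1.19 to 1.53 on the 12 others. Taken as a covariate, it left 4.26% of all genes called for DPI+DNFB over DPI and 7.32% for DPI+DNFB over non-treated cells. Over 16 processing alternatives, this covariate among them, Myc differed by -2.48 to -1.89 from non-treated cells and by -1.77 to -1.16 from DNFB.

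Against DPI alone Myc rose by 0.40 ± 0.13 (adjusted p = 0.0236). That small rise did not pass without DPI replicate 1 (0.32, adjusted p = 0.105), DPI replicate 3 (0.40, adjusted p = 0.0597) or DPI+DNFB replicate 2 (0.26, adjusted p = 0.119). It was 0.15 with arrays centred on their median (adjusted p = 0.547) and 0.63 with the beta-actin covariate (adjusted p = 0.0826). Between the agents, Myc was lower with DNFB than with H2O2 (-0.44 ± 0.13, adjusted p = 0.0236). This call was lost without DNFB replicate 1 (adjusted p = 0.0838) or 3 (0.0881), without H2O2 replicate 2 (0.0609) or 3 (0.0831), and with arrays centred on their median (-0.40, 0.128).

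**Figure D1:**
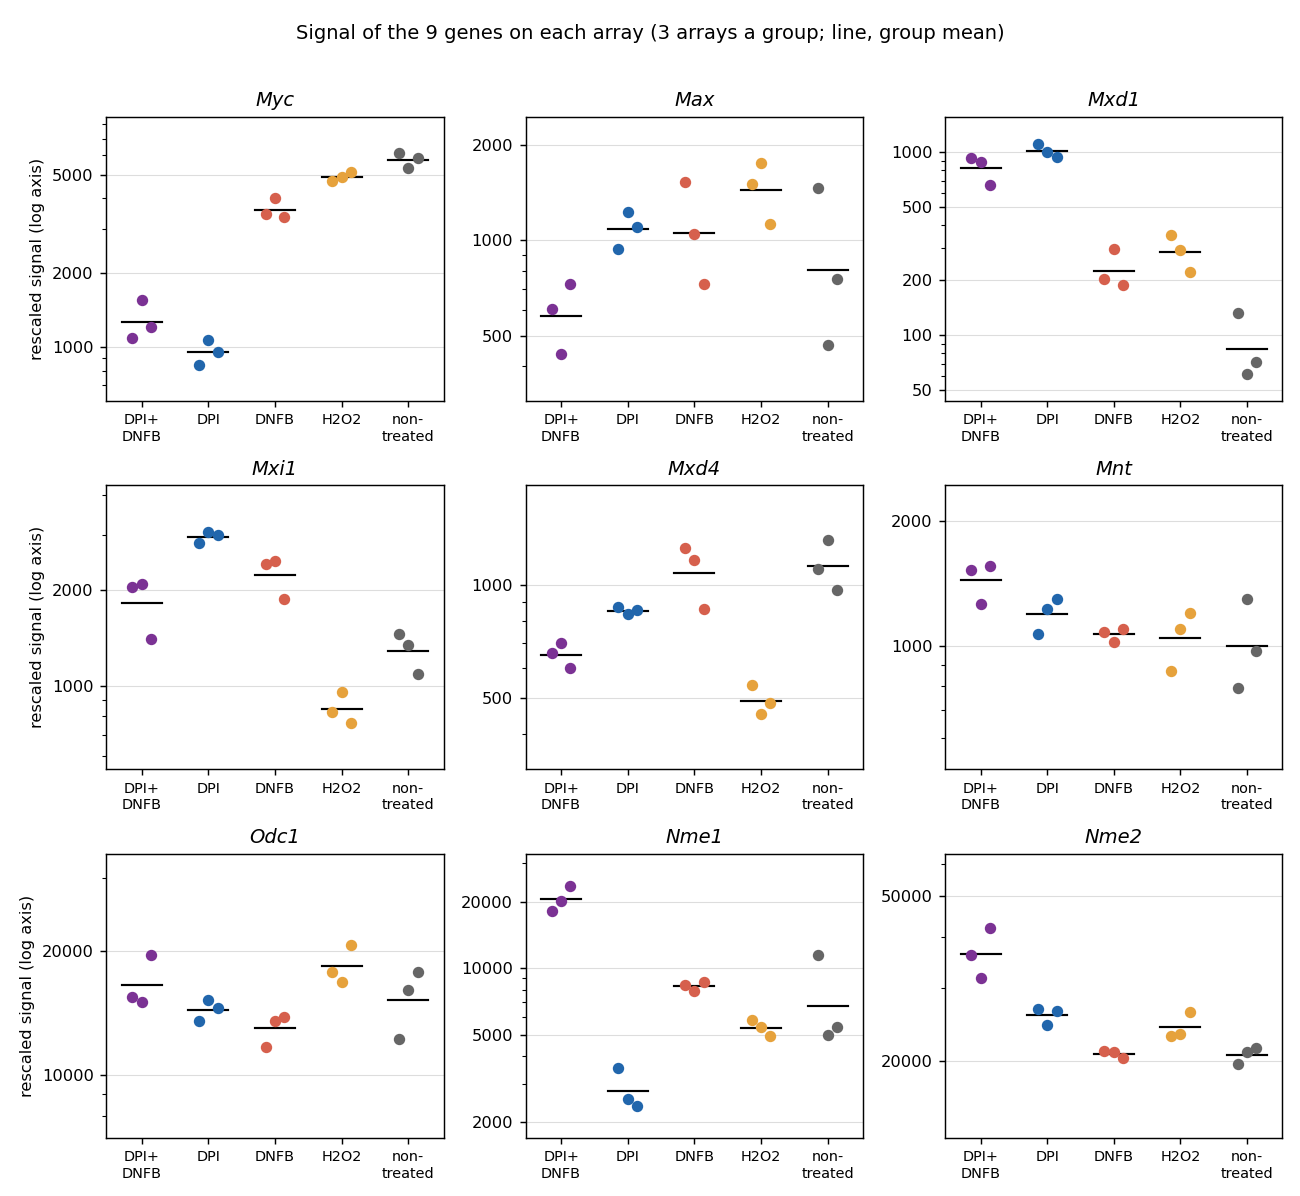
Rescaled signal of the 9 genes on each of the 15 arrays (log axis, 3 points per group, line at the group's mean on the log2(signal + 15) scale), one panel per gene. Myc lies between 845 and 1544 on the 6 arrays with DPI and between 3374 and 6126 on the other 9, while Mxd1 lies between 665 and 1114 with DPI and between 61.4 and 354 without it.

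Mxd1, the MAX partner that marks differentiating myeloid cells, was high where Myc was low. Its main probe set read 933, 887 and 665 with DPI and DNFB together and 1114, 998 and 946 with DPI alone. It read 202, 295 and 188 with DNFB, 354, 291 and 222 with H2O2, and 133, 61.4 and 71.2 in non-treated cells. The DPI arrays were all above the DPI+DNFB arrays, both lay above every other array, and the DNFB and H2O2 arrays overlapped each other.

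Mxd1 rose 10.4-fold with DPI (3.38 ± 0.25, adjusted p = 8.05e-09), 3.02-fold with H2O2 (1.59 ± 0.25, adjusted p = 6.48e-05) and 2.41-fold with DNFB (1.27 ± 0.25, adjusted p = 0.000691), each over non-treated cells. The DNFB rise was 1.93 within the arrays scaled to 500 (adjusted p = 0.00205) and 0.51 within those scaled to 250 (adjusted p = 0.233). The values with DPI were 3.60 and 2.93 in the same order. With both compounds Mxd1 was 8.42-fold above non-treated cells (3.07 ± 0.25, adjusted p = 2.69e-08; 3.14 with the beta-actin covariate, adjusted p = 0.000251) and 3.49-fold above DNFB alone (1.80 ± 0.25, adjusted p = 7.62e-06). Against DPI alone the difference was -0.31 ± 0.25 and did not pass (adjusted p = 0.390), and between DNFB and H2O2 it was -0.32 ± 0.25 (adjusted p = 0.449).

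A second Mxd1 probe set also passed in the probe-set fit with DPI (2.51 ± 0.44, adjusted p = 0.000251), with H2O2 (2.31 ± 0.44, adjusted p = 0.00061) and with DNFB (1.72 ± 0.44, adjusted p = 0.00749) over non-treated cells. It read 257, 189 and 327 with both compounds and 347, 131 and 213 with DPI, against 68.3, 15.7 and 10.5 in non-treated cells, so every array with DPI stood above the non-treated ones. With H2O2 it read 179, 237 and 147, which overlapped the arrays of both groups with DPI. For both compounds over DNFB it did not pass (1.01 ± 0.44, adjusted p = 0.0731). The remaining Mxd1 probe set was below the signal filter.

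**Figure D2:**
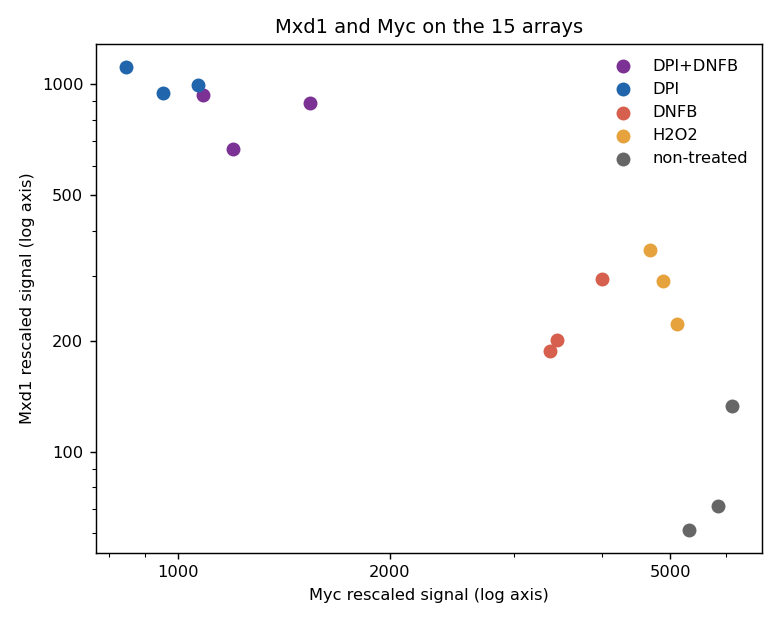
Rescaled signal of Mxd1 (vertical, log axis) against that of Myc (horizontal, log axis) on the 15 arrays, coloured by group. The 6 arrays with DPI form 1 cluster of high Mxd1 and low Myc, and the 9 others lie at Myc above 3374 and Mxd1 below 354, so no pooled correlation is given.

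Mxi1, a repressor of the same family, went opposite ways with the allergen and the oxidant. It read 2043, 2091 and 1409 with both compounds, 2834, 3068 and 2983 with DPI and 2423, 2474 and 1877 with DNFB. With H2O2 it read 824, 955 and 762, against 1454, 1342 and 1092 in non-treated cells. The H2O2 arrays were below every non-treated array, the DPI arrays were above all others, and the DPI+DNFB arrays overlapped both the DNFB and the non-treated ones.

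Over non-treated cells Mxi1 rose by 0.79 ± 0.15 with DNFB (adjusted p = 0.00067) and by 1.19 ± 0.15 with DPI (adjusted p = 8.02e-06), and it fell by 0.60 ± 0.15 with H2O2 (adjusted p = 0.00596). Within the arrays scaled to 500 the DNFB rise was 1.02 and the H2O2 fall was -0.50. Within those scaled to 250 the values were 0.55 and -0.81.

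Set directly against H2O2, DNFB gave 2.63-fold more Mxi1 signal (1.39 ± 0.15, adjusted p = 6.16e-06), the lowest adjusted p of the 9 genes in that comparison. With both compounds Mxi1 fell by 0.70 ± 0.15 relative to DPI alone (adjusted p = 0.00234). With the beta-actin covariate that difference was -0.49 (adjusted p = 0.316). With DPI+DNFB replicate 2 as its lone array, whose beta-actin ratio lay within the range of the other groups, it was -0.50. That value has no spread of its own, since the single array is assumed to vary like the other groups.

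The rise of Mxi1 with both compounds over non-treated cells (0.49 ± 0.15, adjusted p = 0.0182) was not called without non-treated replicate 3 (0.38, adjusted p = 0.102), DPI+DNFB replicate 1 (0.41, adjusted p = 0.083) or DPI+DNFB replicate 2 (0.39, adjusted p = 0.0761). A second Mxi1 probe set had the other sign there (-0.67 ± 0.40, adjusted p = 0.225). With arrays centred on their median the main probe set gave 0.24 (adjusted p = 0.351), and with the beta-actin covariate 0.72 (adjusted p = 0.111). On the second probe set the fall with both compounds relative to DPI passed as well (-1.25 ± 0.40, adjusted p = 0.029). Over non-treated cells it did not pass with DPI (0.59 ± 0.40, adjusted p = 0.319), DNFB (0.37 ± 0.40, adjusted p = 0.604) or H2O2 (-0.78 ± 0.40, adjusted p = 0.186). For DNFB over H2O2 it did not pass either (1.15 ± 0.40, adjusted p = 0.0735). The signs in these comparisons were those of the main probe set. With the mean of both probe sets standing for the gene, DNFB over non-treated cells was 0.58 (adjusted p = 0.119) and H2O2 over non-treated cells was -0.69 (adjusted p = 0.0575).

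Mxd4, another repressor of the family, was lowest with H2O2 on its main probe set. It read 659, 698 and 599 with both compounds, 870, 835 and 858 with DPI and 1252, 1162 and 860 with DNFB. The H2O2 arrays read 540, 452 and 485, against 1104, 1312 and 971 in non-treated cells, and they lay below every array of the other groups. Mxd4 fell by 1.17 ± 0.15 with H2O2 (adjusted p = 9.35e-06) and by 0.77 ± 0.15 with both compounds (adjusted p = 0.000617) relative to non-treated cells. The second of these was -0.76 with the beta-actin covariate (adjusted p = 0.0943). With DNFB the difference was -0.06 ± 0.15 (adjusted p = 0.848), and with DPI it was -0.39 ± 0.15 (adjusted p = 0.0609).

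DNFB gave 2.16-fold more Mxd4 signal than H2O2 (1.11 ± 0.15, adjusted p = 6.43e-05), and both compounds gave 1.64-fold less than DNFB alone (-0.71 ± 0.15, adjusted p = 0.000726). A second Mxd4 probe set had the same sign in these comparisons, at 1.16 ± 0.44 for DNFB over H2O2 (adjusted p = 0.105) and -1.74 ± 0.44 for both compounds over DNFB (adjusted p = 0.00396). For H2O2 over non-treated cells this second probe set did not pass (-0.75 ± 0.44, adjusted p = 0.256). The remaining kept probe set of Mxd4 passed in none of the 8 comparisons. It gave 0.16 ± 0.53 for H2O2 over non-treated cells (adjusted p = 0.866). Unlike the main probe set, both of these had their lowest group median with both compounds. With the mean of all kept probe sets standing for the gene, the differences were -0.58 for H2O2 over non-treated cells (adjusted p = 0.182) and 0.78 for DNFB over H2O2 (adjusted p = 0.109).

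Mnt, the broadly expressed MAX-binding repressor, varied least among the main probe sets of the repressors. It read 1526, 1267 and 1558 with both compounds and 1067, 1230 and 1301 with DPI. It read 1082, 1025 and 1100 with DNFB, 869, 1101 and 1202 with H2O2, and 792, 1296 and 975 in non-treated cells. All neighbouring groups in the order of levels overlapped. With both compounds Mnt was higher than with DNFB (0.43 ± 0.16, adjusted p = 0.0372) and than in non-treated cells (0.52 ± 0.16, adjusted p = 0.0168), and the single treatments did not pass.

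These calls for Mnt were close to the threshold. The rise over DNFB was lost without any 1 of the 3 DNFB arrays (adjusted p between 0.0639 and 0.0981) and without DPI+DNFB replicate 1 (0.103) or 3 (0.111). The rise over non-treated cells was lost without non-treated replicate 1 (0.36, adjusted p = 0.11), DPI+DNFB replicate 1 (0.0562) or DPI+DNFB replicate 3 (0.0621). With each array centred on its median they were 0.16 (adjusted p = 0.532) and 0.27 (adjusted p = 0.268). With the beta-actin covariate they were 0.24 (adjusted p = 0.543) and 0.29 (adjusted p = 0.604).

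Max, the common partner of all these proteins, had the widest spread of the 9 main probe sets within a single group, the non-treated cells. It read 605, 436 and 725 with both compounds, 935, 1230 and 1102 with DPI, and 1529, 1049 and 726 with DNFB. It read 1503, 1746 and 1123 with H2O2 and 1463, 466 and 753 in non-treated cells, where the arrays spanned nearly the whole range of the other groups. With both compounds Max was lower than with DPI (-0.89 ± 0.31, adjusted p = 0.0364) and than with DNFB (-0.85 ± 0.31, adjusted p = 0.0302).

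The call against DPI was lost without DPI replicate 2 (-0.80, adjusted p = 0.11) or 3 (-0.88, 0.089) and without DPI+DNFB replicate 1 (-0.93, 0.0647) or 2 (-0.70, 0.133). The call against DNFB was lost without DNFB replicate 1 (-0.59, adjusted p = 0.164) or 2 (-0.85, 0.0654) and without DPI+DNFB replicate 1 (-0.89, 0.0534) or 2 (-0.66, 0.125). With the beta-actin covariate the values were -1.33 against DPI (adjusted p = 0.153) and -1.24 against DNFB (adjusted p = 0.0683).

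The difference with H2O2 over non-treated cells was 0.83 ± 0.31 and just missed the threshold (adjusted p = 0.0509), and without non-treated replicate 1 it was 1.25 (adjusted p = 0.00223). Without that array DNFB (0.81, adjusted p = 0.042) and DPI (0.85, adjusted p = 0.0256) also passed over non-treated cells, while without non-treated replicate 2 the combined treatment passed downward (-0.85, adjusted p = 0.0365). Within scaling targets H2O2 over non-treated cells was 1.22 at 500 and 0.04 at 250. DPI over non-treated cells was 0.96 at 500 and -0.64 at 250, and DNFB over non-treated cells also differed in sign between the targets (0.81 and -0.47). At 250 the only non-treated array was replicate 1, so target and array cannot be told apart here.

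**Figure D3:**
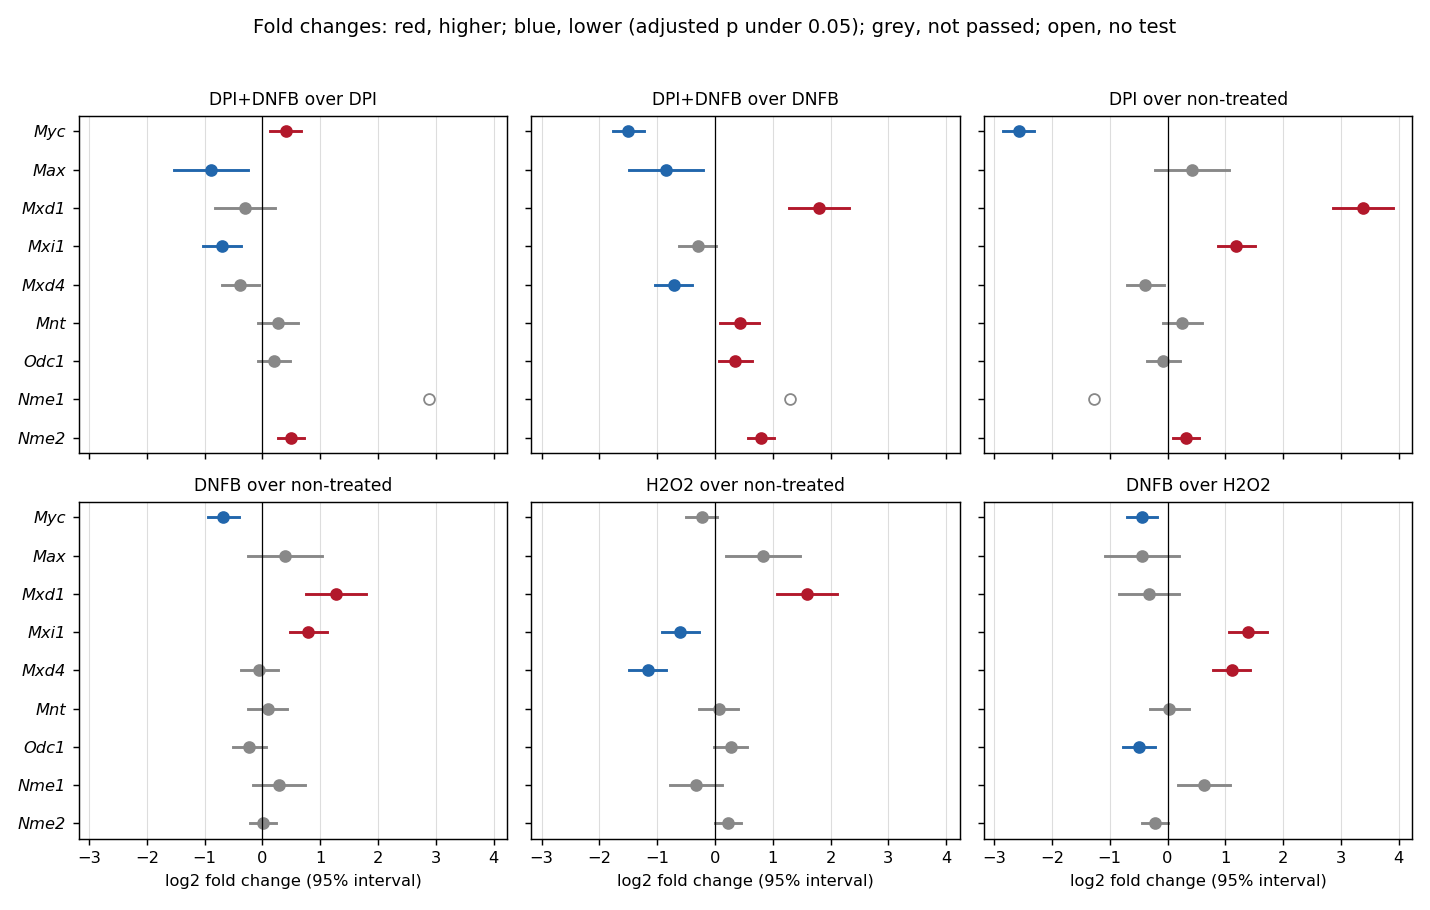
Log2 fold changes of the 9 genes in 6 comparisons, with 95% intervals of the fit; red and blue points passed upward and downward at an adjusted p under 0.05, grey points did not, and open points were not tested. Myc lies at -2.58 and Mxd1 at 3.38 for DPI over non-treated cells, and Mxi1 and Mxd4 lie at 1.39 and 1.11 for DNFB over H2O2.

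Odc1, the polyamine enzyme and a long-known MYC target, was not called lower in either group with DPI, where Myc was lowest. The name of its main probe set carries the suffix that marks probes shared with other sequences. That probe set read 15448, 15028 and 19562 with both compounds, 13532, 15214 and 14534 with DPI and 11732, 13559 and 13798 with DNFB. With H2O2 it read 17780, 16800 and 20631, against 12266, 16062 and 17778 in non-treated cells. The DPI arrays lay inside the range of the non-treated ones, and the DNFB arrays lay below all H2O2 arrays.

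The difference of Odc1 with DPI over non-treated cells was -0.08 ± 0.14, with an interval from -0.36 to 0.21 (adjusted p = 0.733). Odc1 was lower with DNFB than with H2O2 (-0.50 ± 0.14, adjusted p = 0.017). That call was lost without DNFB replicate 1 (-0.42, adjusted p = 0.0875) or H2O2 replicate 3 (-0.41, adjusted p = 0.0903). A second Odc1 probe set gave -0.73 ± 0.11 in the same comparison (adjusted p = 0.000289), with 6034, 6838 and 7571 with DNFB against 10646, 11122 and 11980 with H2O2. It also passed with DNFB (-0.38 ± 0.11, adjusted p = 0.019) and with H2O2 (0.34 ± 0.11, adjusted p = 0.0321) over non-treated cells.

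The remaining Odc1 probe set departed from the others with DPI. It read 1789, 1599 and 1835 with both compounds and 2023, 1684 and 1688 with DPI, against 1369, 829 and 1063 in non-treated cells. It was higher with DPI (0.74 ± 0.16, adjusted p = 0.00139), with both compounds (0.70 ± 0.16, adjusted p = 0.00207) and with H2O2 (0.70 ± 0.16, adjusted p = 0.00238) than in non-treated cells. With both compounds over DNFB all 3 probe sets passed upward, by 0.35 ± 0.14 on the main one (adjusted p = 0.0423 over genes). The main one gave 0.05 after quantile normalization (adjusted p = 0.785) and 0.08 with arrays centred on their median (adjusted p = 0.701). With the beta-actin covariate it gave 0.16 (adjusted p = 0.634). Without any 1 of the 3 DNFB arrays, DPI replicate 3 or DPI+DNFB replicate 3 that call was lost, with values between 0.23 and 0.39 (adjusted p between 0.0523 and 0.207).

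Among 15 tested genes of polyamine metabolism, 2 were higher and 2 lower with DNFB over non-treated cells, beside 10.5% and 13.9% of all genes, with a list median of -0.12 against -0.06 for all genes. Smox, spermine oxidase, rose by 1.43 ± 0.15, and Sat1, which acetylates polyamines for export and breakdown, rose by 1.17 ± 0.17. Srm, spermidine synthase, fell by 0.69 ± 0.18. With DPI over non-treated cells 2 were higher and 2 lower (13.3% and 18.4% of all genes). Sat1 rose by 1.05 ± 0.17, and Smox fell by 0.85 ± 0.15. With both compounds over DNFB, 4 were higher and 4 lower (22.9% and 21.3% of all genes): Smox fell by 1.87 ± 0.15, Srm rose by 1.03 ± 0.18, and Eif5a, the protein that carries the spermidine-derived hypusine, rose by 0.94 ± 0.16.

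Nme1 and Nme2 are neighbouring genes of closely similar sequence, so probes of one can also read the other. Nme1 had a pair of kept probe sets with different patterns. The main one, whose name carries the suffix that marks probes shared with other sequences, read 18217, 20131 and 23551 with both compounds and 3533, 2550 and 2385 with DPI. It read 8366, 7861 and 8674 with DNFB, 5812, 5415 and 4939 with H2O2 and 11445, 4976 and 5423 in non-treated cells. The DPI+DNFB arrays stood above all others and the DPI arrays below all others, and 1 non-treated array was above the DNFB arrays.

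As a description, that probe set was 7.34-fold higher with both compounds than with DPI (2.88 on the log2 scale), 2.47-fold higher than with DNFB and 3.03-fold higher than in non-treated cells. It was 2.42-fold lower with DPI than in non-treated cells (-1.28), whereas the other kept probe set was higher there (0.41). With the mean of both kept probe sets standing for the gene, both compounds over DPI was 1.48 and DPI over non-treated cells was -0.43. On the main probe set, with DPI+DNFB replicate 2 as the lone array of its group, the difference from DPI was 2.85. The 3 comparisons without DPI did not pass: 0.29 ± 0.22 for DNFB over non-treated cells (adjusted p = 0.376), -0.33 ± 0.22 for H2O2 over non-treated cells (adjusted p = 0.286) and 0.62 ± 0.22 for DNFB over H2O2 (adjusted p = 0.0575). Non-treated replicate 1 held the high value: without it, DNFB over non-treated cells was 0.67 (adjusted p = 0.00262), and DNFB over H2O2 passed (adjusted p = 0.00358). DNFB over H2O2 also passed without non-treated replicate 2 (adjusted p = 0.0401) or DPI replicate 1 (adjusted p = 0.0478). For DNFB over non-treated cells the difference was 0.60 at the scaling target of 500 and -0.43 at 250, where replicate 1 was the only non-treated array.

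The other Nme1 probe set read 5548, 5590 and 6840 with both compounds and 5322, 5200 and 6474 with DPI. It read 3512, 3752 and 4972 with DNFB, 5907, 5892 and 6482 with H2O2 and 3879, 3415 and 5740 in non-treated cells. The DPI+DNFB and DPI arrays overlapped, and the difference between them was 0.08 on the log2 scale. On this probe set Nme1 was higher with H2O2 than in non-treated cells (0.52 ± 0.16, adjusted p = 0.0261) and lower with DNFB than with H2O2 (-0.59 ± 0.16, adjusted p = 0.0238), the opposite sign to the main probe set. Over the 15 arrays the Pearson correlation of the Nme1 probe sets was -0.02. Which transcripts the shared probes read was not tested.

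Nme2, whose human counterpart has also been described as a DNA-binding protein at the MYC promoter, had 1 probe set. It read 36071, 31867 and 41965 with both compounds and 26681, 24503 and 26528 with DPI. It read 21219, 21117 and 20330 with DNFB, 22967, 23264 and 26377 with H2O2 and 19747, 21077 and 21519 in non-treated cells. The DPI+DNFB arrays were above all others, and the DNFB and non-treated arrays overlapped.

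Nme2 was higher with both compounds than with DPI (0.49 ± 0.11, adjusted p = 0.00207), than with DNFB (0.80 ± 0.11, adjusted p = 5.48e-06) and than in non-treated cells (0.81 ± 0.11, adjusted p = 1.15e-05). The rise over DPI was 0.16 after quantile normalization (adjusted p = 0.144) and 0.24 with arrays centred on their median (adjusted p = 0.126). With the beta-actin covariate it was 0.18 over DPI (adjusted p = 0.563) and 0.47 over non-treated cells (adjusted p = 0.0711). With DPI over non-treated cells it was 0.32 ± 0.11 (adjusted p = 0.0289). That call was lost without any 1 of the 3 non-treated arrays, DPI replicate 1 or DPI replicate 3 (0.28 to 0.34, adjusted p between 0.0505 and 0.0953).

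Of 5 further NME family genes, 3 were tested, Nme5 was below the signal filter and Nme3 was not matched. With both compounds over DNFB, Nme4, a mitochondrial member, was higher by 0.91 ± 0.34 and Nme6 by 0.75 ± 0.23. Of all genes, 22.9% were higher in that comparison. Nme4 averaged 195 with both compounds, 96.4 with DNFB and 199 with H2O2. With H2O2 over non-treated cells Nme6 fell by 0.73 ± 0.23, beside 17.4% of all genes lower. With DNFB or DPI over non-treated cells none of the 3 passed, beside 24.4% and 31.8% of all genes.

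**Figure D4:**
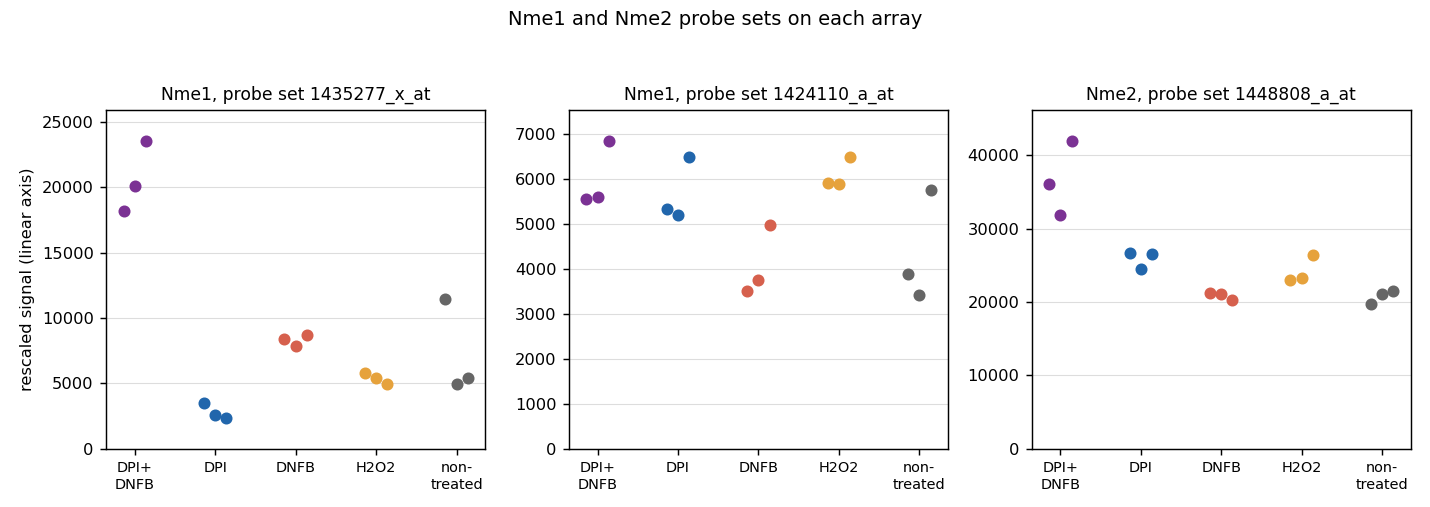
Rescaled signal (linear axis from 0) of the Nme1 and Nme2 probe sets on each array, with 3 points per group. The left Nme1 probe set reaches 18217 to 23551 with DPI+DNFB against 2385 to 3533 with DPI, whereas the middle one reads 5548 to 6840 against 5200 to 6474.

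Counted over the members, 3 of 9 were called with DNFB over non-treated cells, where 24.4% of all genes were called. They were 2 higher and 1 lower, beside 10.5% and 13.9% of all genes. Without non-treated replicate 1 the count was 5. With H2O2 over non-treated cells 3 of 9 were called (28.3% of all genes), 1 higher and 2 lower, beside 10.9% and 17.4%. Both counts are near the share among all genes.

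With DPI over non-treated cells 4 of the 8 tested members were called (31.8% of all genes), 3 higher and 1 lower, beside 13.3% and 18.4%. With both compounds over non-treated cells 6 of 8 were called (33.8%), 4 higher and 2 lower, beside 15% and 18.7%. With arrays centred on their median, 7.24% of all genes were called higher and 29.4% lower in the comparison of both compounds with non-treated cells.

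For both compounds over DPI 4 of 8 were called (27.8% of all genes), 2 in each direction, beside 14.1% higher and 13.7% lower, which was 5.24% and 22.5% with arrays centred on their median. The count was 2 without DPI replicate 3 or DPI+DNFB replicate 2. For both compounds over DNFB 7 of 8 were called (44.2%), 4 higher and 3 lower, beside 22.9% and 21.3%, which was 12.7% and 30% with that centring. Of the 7, Myc, Mxd1, Mxd4 and Nme2 passed whichever array was left out, and without DNFB replicate 1 or 2 the count was 4. With DNFB over H2O2 4 of 9 were called (14.7%), 2 in each direction, beside 8.75% higher and 6% lower, which was 7.76% and 3.2% with that centring. The count was 2 without DNFB replicate 1 or H2O2 replicate 3. The comparisons with non-treated cells share those 3 arrays, and the comparisons of the combined treatment share its 3 arrays, so they are not independent of each other.

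The effect of DNFB differed with and without DPI for 5 of the 8 members tested, where 31.1% of all genes were called. The difference was positive for 2 members and negative for 3, beside 17.3% and 13.8% of all genes, which was 8.65% and 19% with arrays centred on their median. Myc rose by 0.40 with DNFB in the presence of DPI and fell by 0.67 in its absence, a difference of 1.08 ± 0.18 (adjusted p = 0.000136). Mxi1 fell by 0.70 with DPI present and rose by 0.79 without it, a difference of -1.49 ± 0.22 (adjusted p = 3.56e-05). For Mxd1 the difference was -1.58 ± 0.35 (adjusted p = 0.00187), with -0.31 in the presence of DPI against 1.27 in its absence. On the second Mxd1 probe set the difference was -1.50 ± 0.62 and did not pass (adjusted p = 0.0816).

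Within scaling targets the interaction of Mxd1 was -2.26 at 500 and -0.76 at 250. Nme2 differed by 0.48 ± 0.15 (adjusted p = 0.0195), which was 0.11 after quantile normalization (adjusted p = 0.524), 0.21 with arrays centred on their median (adjusted p = 0.374) and 0.23 with the beta-actin covariate (adjusted p = 0.355), and was lost without DPI+DNFB replicate 3 (0.38, adjusted p = 0.0527). Max differed by -1.28 ± 0.44 (adjusted p = 0.0304), with -1.84 within the arrays scaled to 500 (adjusted p = 0.0148) and -0.15 within those scaled to 250 (adjusted p = 0.867). This call was lost without any 1 of 7 arrays, with values from -1.28 to -0.89 (adjusted p between 0.0526 and 0.0975). These were replicates 2 and 3 of non-treated cells and of DPI, replicates 1 and 2 of DNFB, and replicate 2 of DPI+DNFB. The interaction of the main Nme1 probe set, described without a test, was 2.58.

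Other genes tied to MYC were followed in 10 lists, with 143 tested genes. The pool mixes MYC targets with genes that MYC represses, network partners and factors of MYC protein turnover. Its pooled counts and medians therefore do not describe MYC targets alone. With DNFB over non-treated cells 13 were higher and 48 lower, 42.7% of them against 24.4% of all genes, with a median of -0.28 against -0.06. With H2O2 over non-treated cells 17 were higher and 27 lower, and their 30.8% was near the 28.3% of all genes, with a median of -0.03 against -0.06. With DPI over non-treated cells, where Myc was lowest, 36 were higher and 31 lower, 46.9% against 31.8% of all genes, with a median of 0.01 against -0.01. With both compounds over DNFB 61 were higher and 18 lower, 55.2% against 44.2% of all genes, with a median of 0.27 against 0.10. With arrays centred on their median, 12.7% of all genes were higher and 30% lower there, with a median of -0.17. With the beta-actin covariate 22.9% of all genes were called. The direction counts of the lists are not given under these settings.

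The cell cycle targets of MYC fell with DNFB in 11 of 13 tested and rose in 0, where 13.9% of all genes fell and 10.5% rose. Ccne1 fell by 1.56 ± 0.24 and Ccnd1 by 1.25 ± 0.12, both cyclins of the G1 phase. With DPI 7 of the 13 rose and 4 fell, where 13.3% of all genes rose and 18.4% fell, and Ccnd1 fell by 2.21 ± 0.12. In nucleotide and one-carbon synthesis 11 of 19 fell with DNFB and 1 rose, with Dhodh, an enzyme of pyrimidine synthesis, at -1.76 ± 0.25. With DPI 5 of the 19 rose and 4 fell.

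Of 22 nucleolar and translation targets, 1 rose and 9 fell with DPI, where 13.3% of all genes rose and 18.4% fell. Those that fell included Polr1b, a subunit of RNA polymerase I, by 1.54 ± 0.26 and Wdr12, a ribosome assembly factor, by 1.43 ± 0.16. With H2O2 5 of the 22 rose and 0 fell, where 10.9% of all genes rose and 17.4% fell. Of 13 genes of glycolysis and nutrient uptake, 8 rose and 1 fell with DPI, beside 13.3% and 18.4% of all genes. Slc7a5, a carrier of large amino acids, rose by 1.14 ± 0.11, while Hk2, a hexokinase, fell by 1.21 ± 0.15.

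Of 11 tested genes that MYC is known to repress, 5 rose and 2 fell with DPI, where 13.3% of all genes rose and 18.4% fell. With DNFB 4 rose and 2 fell (10.5% and 13.9% of all genes), and with H2O2 3 rose and 2 fell (10.9% and 17.4%). The counts that fell are near the shares among all genes. Cdkn1a, the cell cycle inhibitor p21, rose by 2.58 ± 0.13 with DNFB and by 2.78 ± 0.13 with H2O2, and Ndrg1 rose by 2.02 ± 0.14 with DPI. In the other direction, Txnip, an inhibitor of thioredoxin, fell by 1.27 ± 0.14 with DNFB (adjusted p = 1.51e-06), and Cdkn1b, the cell cycle inhibitor p27, fell by 1.05 ± 0.26 with H2O2 (adjusted p = 0.00412). Among 21 MAX and MLX network partners, Mxd3, the remaining MXD repressor, fell by 1.05 ± 0.31 with DNFB and was higher by 1.43 ± 0.31 with both compounds than with DNFB.

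**Figure D5:**
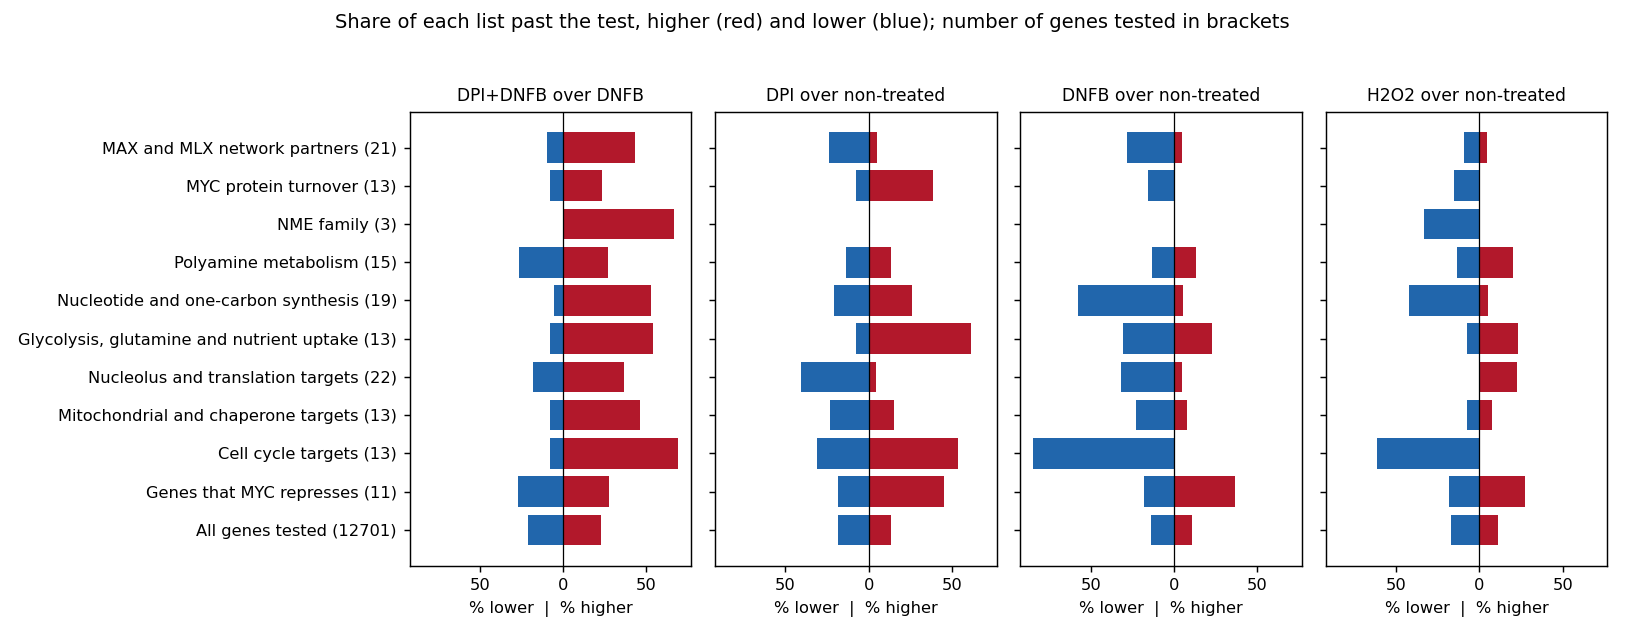
Percent of the tested genes of each MYC-linked list that passed upward (red, right) or downward (blue, left) in 4 comparisons, with the share among all 12701 genes at the bottom. Cell cycle targets pass downward in 11 of 13 with DNFB over non-treated cells and upward in 9 of 13 with both compounds over DNFB. For both compounds over DNFB, 22.9% of all genes pass upward, and 12.7% with arrays centred on their median.

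The genes whose log2 signal followed that of Myc most closely over the 15 arrays were Zfp638 (Pearson r = 0.967), Pcbp1, Mrps2, Lpar6 and Kcnk6 (lowest r = 0.962). For Odc1 they were Bend6 (r = 0.869), Cct4, Usp36, Ddx5 and Nos1ap (lowest r = 0.81). For the main Nme1 probe set they were Nfkbil1 (r = 0.936), Ankrd54, the mitochondrially encoded ND5, Baz1b and Tpgs1 (lowest r = 0.901). ND5 averaged 48587 with both compounds, 10558 with DPI, 21635 with DNFB, 13526 with H2O2 and 19682 in non-treated cells. Points of one group share their treatment, so these values describe likeness only.

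All 24 dendritic cell and leukocyte markers were above the signal filter, Ptprc, Itgax, Cd74 and H2-Aa in every group. Cd207, which marks Langerhans cells, averaged 988 with DNFB against 124 in non-treated cells and 31.9 to 194 in the other groups. Their summed signal per array was 183880 to 204434 with both compounds, 150292 to 178829 with DPI, 152926 to 168836 with DNFB, 170294 to 185720 with H2O2 and 164617 to 181685 in non-treated cells. Of the markers of keratinocytes, fibroblasts, T cells, melanocytes and mast cells, 5 of 11, 3 of 8, 1 of 5, 2 of 5 and 2 of 6 were above it. The summed keratinocyte markers, mostly Cdh1, were 1552 to 1806 with both compounds, 1574 to 2170 with DPI, 1321 to 1572 with DNFB, 1243 to 1536 with H2O2 and 1628 to 2121 in non-treated cells. In this sum the DNFB and H2O2 arrays lay below the non-treated ones. Cdh1 averaged 634 with DNFB and 681 with H2O2, against 1236 in non-treated cells. Krt5, Krt6a, Trp63 and Lor, the others above the filter, averaged higher with DNFB and with H2O2 than in non-treated cells. The summed fibroblast and T cell markers overlapped between all groups. The summed melanocyte markers were 329 to 828 with both compounds, 225 to 570 with DPI, 176 to 277 with DNFB, 221 to 314 with H2O2 and 222 to 309 in non-treated cells. The summed mast cell markers, mostly Kit, were 751 to 782 with both compounds, 927 to 1252 with DPI, 1174 to 1851 with DNFB, 980 to 1186 with H2O2 and 1855 to 2029 in non-treated cells. The part of these markers in the differences was not tested.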

How the data were processed

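The deposited values are a linear intensity per probe set, made by the authors with MAS5 in Affymetrix Expression Console, per the submitters' processing notes; versions and build are not given in the sources used here. Per the labels' protocols, biotinylated cRNA was prepared from total RNA with a 3' kit. The number of arrays limits the precision.

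The 2% trimmed mean was 250 on 6 arrays (DNFB replicates 1 and 3, and replicate 1 of the 4 other groups) and 500 on 9, so every array was rescaled to 500. After adding 15 and taking log2, the 27022 probe sets with a mean at or above the 40th percentile (6.22) were kept, and the brightest stood for its gene. Of 45037 probe sets other than 64 controls, 34945 had 1 symbol, 932 several and 9160 none; symbols were updated by gene ID for 34741. limma 3.58.1 in R 4.3.3 fitted 5 group means to all 15 arrays (10 residual degrees of freedom, eBayes with trend). The 7 pairwise comparisons and the interaction were tested two-sided with Benjamini-Hochberg adjustment over 12701 genes, and in a separate fit over 22561 probe sets for genes with several. The median SE was 0.197. Fold changes of dim genes are understated by the added 15. The fit was tested on simulated data. Figures used Python 3.11.15 and matplotlib 3.10.9.

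Named genes were the 9 members, up to 3 called genes of largest change per list and comparison, from which examples were taken, and the 5 genes most correlated with Myc, Odc1 and Nme1. The members, lists, settings and rule were chosen with earlier results of these data known. Alternatives covered the pseudocount, filter, normalization, probe set choice, array weights, blocks, covariate, 1 array left out at a time and values as deposited; those within 1 scaling target, and with DPI+DNFB replicate 2 alone, were added after seeing the data. Within-group correlations were 0.916 to 0.959, and no arrays were identical.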

Additional observations from a re-analysis of the deposited data

Results flagged for a closer look

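The effect of DNFB in the presence of DPI differed from its effect in the absence of DPI, by the interaction term of the fit, for 5 of the 8 members tested. Of all genes, 31.1% were called for this term, 17.3% positive and 13.8% negative. On the log2 scale the difference was 1.08 for Myc, 0.48 for Nme2, -1.28 for Max, -1.58 for Mxd1 and -1.49 for Mxi1. Myc and Mxi1 moved in opposite directions in the presence and absence of DPI, although the rise of Myc in its presence was 0.15 with arrays centred on their median (adjusted p = 0.547), where the interaction of Myc was 0.80 (adjusted p = 0.0125). Beside these values, the beta-actin 3'/5' ratio was 1.50 to 2.29 on the DPI+DNFB arrays and 1.19 to 1.53 on the others. With that ratio as a covariate the differences were 1.26 for Myc (adjusted p = 0.000462), -1.53 for Mxd1 (adjusted p = 0.0221), -1.32 for Mxi1 (adjusted p = 0.00211) and 0.23 for Nme2 (adjusted p = 0.355).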

How the results depend on the processing

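The 36 calls on members were recomputed under 31 alternatives, 1116 values, of which 1115 kept their direction and 960 their call. The exception was Mxi1 with both compounds over non-treated cells, -0.087 with the mean of the kept probe sets. With values as deposited, where arrays of a group differ in scale by construction, 0 members were called by limma for DNFB and for H2O2 over non-treated cells, DNFB over H2O2, DPI+DNFB over DPI and the interaction (0, 2, 1, 0 and 0 at an unadjusted p under 0.05), 1 for DPI+DNFB over DNFB, and 2 each for DPI and DPI+DNFB over non-treated cells; at most 6.53% of all genes were called. For DPI+DNFB over DNFB, 4 were called under array weights, under the beta-actin covariate and within either scaling target. For DPI+DNFB over DPI, 2 were called under array weights (25.6% of all genes), 0 by limma under the covariate (2 unadjusted, 4.26%), 0 within the arrays scaled to 250 (2 unadjusted, 11.3%) and 1 with DPI+DNFB replicate 2 alone (10%), a single array assumed to vary like the other groups. The covariate gave 2 for DPI+DNFB over non-treated cells (7.32%). All-gene calls fell as well in these fits, against 27.8% and 33.8%, so the member counts say nothing particular to the members. DNFB over H2O2 gave 2 at the scaling target of 500. At the target of 250, DNFB over non-treated cells gave 1 and the interaction 2. The cause was not tested. Within 1 scaling target some groups held only 1 array, which is assumed to vary like the other groups. Leaving out 1 array gave 2 to 5 calls for DNFB over H2O2, 3 to 5 for DNFB and for DPI over non-treated cells, 3 to 4 for H2O2 over non-treated cells, 4 to 7 for DPI+DNFB over DNFB and over non-treated cells, 2 to 5 for DPI+DNFB over DPI and 4 to 6 for the interaction. Same-numbered arrays correlated at -0.00 to 0.14 in their deviations, with 9 of 30 pairs over 0.1 and each of the 15 arrays closest to its own number, a hint from the data and not the design; with the replicate block 0 calls were lost and 6 gained. Centring arrays on their median moved the median of all genes to -0.17 for DPI+DNFB over DNFB, against 0.10, and to -0.14 for the interaction, against 0.14, and 8 member calls were lost and 2 gained. Precision is limited by 3 arrays per group, and the scaling targets, the beta-actin ratio and differing probe sets also move values.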
